A study of Homo sapiens with 21 samples.

Results

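Microglia-like cells homozygous for the A allele of an INPP5D variant (INPP5D SNP) were compared with microglia-like cells of the unedited line (WT) by ATAC-seq, which reads out accessible chromatin by where a transposase can insert. The comparison takes the libraries titled with INPP5D or WT, 3 for each line and 6 of the 21 libraries in the series. H9, a human embryonic stem cell line in wide use, is the parent of both. Per the labels, H9 carried both the G and the A allele, and Cas9 with a repair oligonucleotide made the edited clones homozygous for A. WT is therefore heterozygous at the variant, not homozygous for G. The sources used here do not give the variant's position, so no peak was assigned to it. All 6 libraries share the rest of their history: blood progenitors were fed IL-34 (100 ng/mL), TGFB1 (50 ng/mL) and M-CSF (25 ng/mL) for 28 days, with CD200 and CX3CL1 (100 ng/mL each) in the last 3 days, and 80000 viable cells per line were sorted. Edited cells were isolated as clones, and how many clones stand behind a line is not stated. Nothing in the labels says that replicates are separate differentiations, so a p-value here measures the spread of these libraries alone, which may be technical.

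INPP5D encodes SHIP1, a phosphatase of blood cells that removes the 5-phosphate from the lipid PIP3 made by PI3-kinase. In microglia SHIP1 is recruited to receptors with inhibitory motifs and damps signalling from activating partners such as TREM2 with TYROBP, and common variants at INPP5D are associated with Alzheimer's disease risk. Its product, PI(3,4)P2, is in turn dephosphorylated by INPP4B and its paralog INPP4A.

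Some promoters carry the results below and are shown here, each as the 300 bases from 250 before to 50 after a RefSeq start site of GRCh38.p14, read 5′ to 3′ along the gene. Capitals mark matches, on either strand, to 5 motifs: GAGGAA (an ETS and PU.1 core), TGANTCA (AP-1), GGGCGG (GC box), CCAAT and TATAAA. No 2 matches in these sequences overlap. Over 34961 promoters of the same length, the motifs occur in 27.9%, 7.68%, 45.0%, 34.6% and 11.5%, so a match describes the letters and is not a bound site. The edited gene's own promoter lies at chr2:233060092-233060391 (+ strand) and was under a peak in all 6 libraries.
INPP5D promoter: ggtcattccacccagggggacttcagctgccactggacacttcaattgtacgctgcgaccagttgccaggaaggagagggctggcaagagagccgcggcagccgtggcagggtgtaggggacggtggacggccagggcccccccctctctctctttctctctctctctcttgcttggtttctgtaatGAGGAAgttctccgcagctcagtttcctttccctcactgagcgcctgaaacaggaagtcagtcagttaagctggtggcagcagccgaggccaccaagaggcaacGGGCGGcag
NAA35, the gene with the smallest p in the test per gene, has its first promoter at chr9:85940896-85941195 (+ strand), also under a peak in all 6 libraries.
NAA35 promoter: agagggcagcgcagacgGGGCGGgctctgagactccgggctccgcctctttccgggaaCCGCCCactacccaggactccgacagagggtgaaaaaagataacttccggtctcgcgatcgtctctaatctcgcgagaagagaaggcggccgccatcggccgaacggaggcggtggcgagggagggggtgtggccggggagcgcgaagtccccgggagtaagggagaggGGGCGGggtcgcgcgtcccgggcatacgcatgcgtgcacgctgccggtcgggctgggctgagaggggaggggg
A pair of other promoters was under a peak in 3 of 3 INPP5D SNP libraries and in 0 of 3 WT libraries: that of IGFBPL1 at chr9:38424405-38424704 (- strand) and the upstream start of HNRNPH1 at chr5:179634735-179635034 (- strand).
IGFBPL1 promoter: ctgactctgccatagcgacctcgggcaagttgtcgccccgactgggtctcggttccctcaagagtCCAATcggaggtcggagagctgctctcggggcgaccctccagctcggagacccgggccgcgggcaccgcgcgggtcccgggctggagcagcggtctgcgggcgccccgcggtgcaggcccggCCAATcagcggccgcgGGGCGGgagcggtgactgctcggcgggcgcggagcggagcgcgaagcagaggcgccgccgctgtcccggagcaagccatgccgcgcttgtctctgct
HNRNPH1 upstream promoter: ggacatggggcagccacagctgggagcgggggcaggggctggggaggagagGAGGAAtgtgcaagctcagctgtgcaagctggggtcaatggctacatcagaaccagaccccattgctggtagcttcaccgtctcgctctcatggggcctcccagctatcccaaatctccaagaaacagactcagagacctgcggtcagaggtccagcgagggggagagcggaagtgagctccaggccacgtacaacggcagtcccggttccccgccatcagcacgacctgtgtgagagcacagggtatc
The INPP5D promoter holds 1 GAGGAA and 1 GGGCGG, the IGFBPL1 promoter 2 CCAAT and 1 GGGCGG, the HNRNPH1 upstream promoter 1 GAGGAA, and the NAA35 promoter 3 GGGCGG. None of these 4 windows holds TGANTCA or TATAAA.

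Replicate numbers differed widely in depth, and alike in both lines. Tags in the INPP5D SNP libraries 1, 2 and 3 numbered 64.4, 16.3 and 32.6 M (M for mega, per the file headers), and in WT 65.4, 15.5 and 48.5 M. Number 2 was the shallow library in both lines, as it was in the other 5 edited lines, where number 2 held 12.8 to 17.5 M tags. The share of tags inside peaks was 46.4, 69.4 and 73.7% in INPP5D SNP and 57.6, 72.5 and 73.2% in WT, so INPP5D SNP replicate 1 had the lowest share of the 6. The INPP5D SNP lists held 80857, 51175 and 90194 peaks on chromosomes 1 to 22 and X, and the WT lists 96241, 46956 and 95266. The mean was 74075 ± 20374 peaks against 79488 ± 28178 (SD, n = 3 each), a difference well within the spread (two-sided exact permutation p = 0.6, where 0.1 is the smallest p that 3 against 3 libraries allow).

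The make-up of the lists differed between the lines by less than the spread between libraries. Regions within 1 kb of either end of a protein-coding gene are called gene ends here. They took 16.19, 19.64 and 14.03% of the INPP5D SNP peaks and 14.09, 20.01 and 13.62% of the WT peaks (means 16.6 and 15.9%, exact permutation p = 0.8, n = 3 each). Peaks within genes made up 41.3 ± 1.82% against 41.4 ± 1.92%, and peaks outside genes 42.1 ± 1.54% against 42.7 ± 1.64% (exact permutation p = 0.7 and 1.0, SD, n = 3 each). A width of 501 bp was the commonest in each of the 6 lists (30.2 to 43.0% of peaks), with at most 5 narrower peaks in a list. Median peak width was 659, 629 and 627 bp in INPP5D SNP and 641, 630 and 628 bp in WT (exact permutation p = 0.9, n = 3 each). In both lines the shallow library 2 had the highest share at gene ends, and the lines overlapped in every one of these measures.

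Peak sets overlapped least where 1 library of a pair was numbered 2 and the other was not. The Jaccard index (shared bp over bp covered by either library) averaged 0.489 ± 0.0992 over the 6 pairs within a line and 0.530 ± 0.101 over the 9 pairs between lines (exact permutation p = 0.6 for the difference of -0.0406). Between lines, the 4 pairs with 1 library numbered 2 ranged from 0.413 to 0.448. Among the other pairs between lines, number 2 with number 2 gave 0.556, INPP5D SNP 1 with WT 3 gave 0.605 and INPP5D SNP 3 with WT 1 gave 0.614, and the same-numbered pairs 1 and 3 gave 0.639 and 0.644. Pairs within a line never share a number, while 3 of the 9 pairs between lines do, so these averages differ in make-up. The 6 pairs between lines with unlike numbers averaged 0.488 ± 0.0948, against 0.489 within lines. Of the regions called in INPP5D SNP libraries 1, 2 and 3, 89.0, 74.0 and 85.4% were also called in the WT library of the same number.

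The markers of the intended cell were open in both lines. Of 11 microglia markers 7 have a promoter in the RefSeq table, and of these INPP5D SNP libraries had a peak over 7, 6 and 6 and WT libraries over 7, 5 and 7. CSF1R, CX3CR1, P2RY12, C1QA and ITGAM, which encode the M-CSF receptor, the fractalkine receptor, a purinergic receptor, a complement subunit and an integrin, were called in all 6. AIF1 (the microglial protein IBA1) was missed by WT library 2 alone, and TREM2 was called in INPP5D SNP library 1 and WT libraries 1 and 3. Pluripotent genes had a called promoter in 2, 2 and 3 against 3, 1 and 2 of 10. LIN28B was called in all 6 libraries, and NANOG, ZFP42, DPPA2 and DPPA4 in no library. Erythroid, megakaryocyte and mast cell genes had 5, 2 and 4 against 6, 2 and 5 of 15, with GATA1 and KLF1 called in no library and KIT and TAL1 in all 6. The counts were 7, 2 and 5 against 7, 2 and 6 of 14 for lymphoid and granulocyte genes, 3, 2 and 4 against 4, 1 and 3 of 9 for mesenchymal and endothelial genes, and 3, 4 and 3 against 5, 2 and 3 of 12 for neural genes. In every one of these sets the lines overlapped. As a base rate, 27195 genes of all kinds have a promoter in the table. Of these, 13479, 11128 and 13157 had a called promoter in INPP5D SNP and 13894, 10466 and 13305 in WT. The microglia markers stood above that share in each of the 6 libraries. Whether any set differs from the base rate was not tested. An open promoter shows accessibility, not expression, and a bulk library cannot tell fewer cells of a type from weaker accessibility per cell.

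At INPP5D itself no measure passed a test, and calls numbered 45 of 60 in INPP5D SNP and 47 of 60 in WT. Merging peaks that share at least 1 bp over the 6 libraries gave 20 regions nearest to the gene, from 11.3 kb before its start to its 3′ end. INPP5D SNP libraries called 17, 11 and 17 of them and WT libraries 16, 12 and 19. Together these regions covered 20777, 8458 and 17689 bp in INPP5D SNP and 22435, 8639 and 18878 bp in WT. Each WT library covered slightly more than the INPP5D SNP library of its number, and the groups overlapped broadly. The promoter region (chr2:233059560-233062543, coordinates as deposited) was called in all 21 libraries of the series, with widths of 2984, 941 and 2451 bp in INPP5D SNP and 2973, 1654 and 2705 bp in WT.

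**Figure D1:**
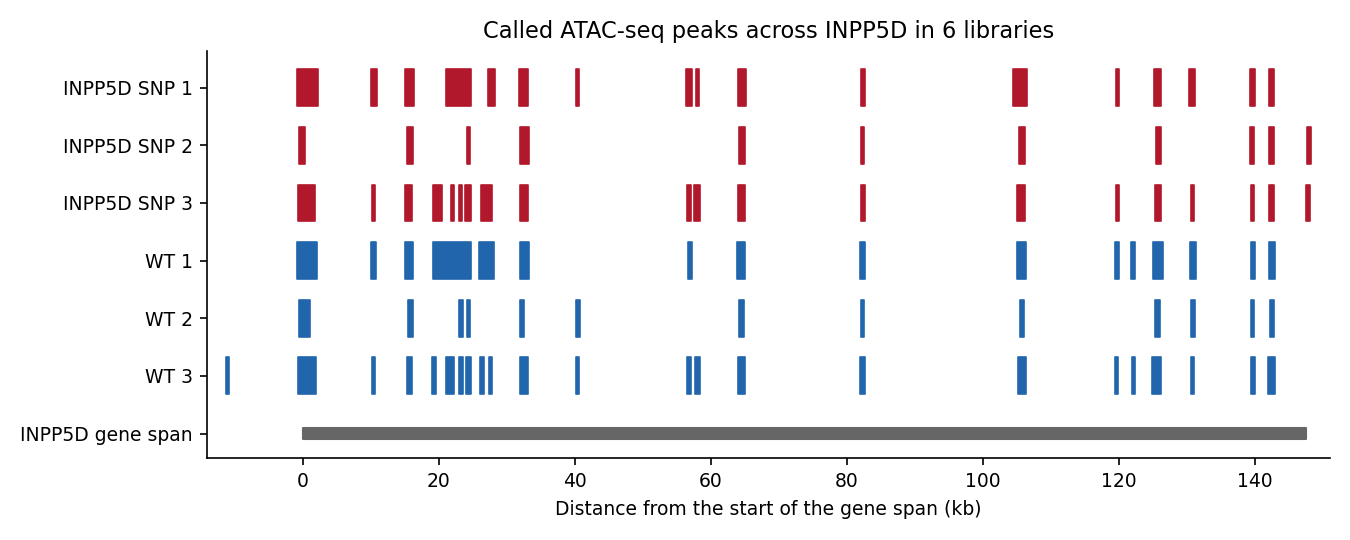
Called peaks across INPP5D in the 3 INPP5D SNP (red) and 3 WT (blue) libraries, drawn to scale against the distance in kb from the start of the gene span (grey bar). The promoter and 9 further regions have a peak in every library, and the libraries numbered 2 have the fewest peaks in both lines.

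Of the 20 regions, 10 were called in all 6 libraries and could be compared by width. Width here is the bp of a region under peaks, on the log2 scale and centred on each library's median, and was tested with limma over all 35729 regions called in 6 of 6 libraries with Benjamini-Hochberg adjustment. At the promoter the difference was -0.26 (SE 0.28, unadjusted p = 0.361). The smallest p at the gene came from a region within it, chr2:233185234-233186760, with widths of 1036, 627 and 894 bp in INPP5D SNP against 1367, 817 and 1357 bp in WT. It was narrower in INPP5D SNP within each replicate number, by -0.41 on the centred log2 scale (SE 0.19, unadjusted p = 0.0532), although the groups' raw widths overlapped. Another region within the gene, chr2:233164766-233166862, measured 2097, 904 and 1182 bp against 1258, 628 and 1170 bp, a difference of 0.48 the other way (SE 0.24, unadjusted p = 0.0720). Neither passed, with limma adjusted p = 0.999 for each region at the gene. Those p-values do not show that the widths are alike.

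Among the weaker regions of INPP5D, calls changed sides in both directions. The region at chr2:233182120-233182753 was called in WT libraries 1 and 3, in 0 of 3 INPP5D SNP libraries and in 9 of the 15 libraries of the other edited lines. At the 3′ end, chr2:233207908-233208528 was called in INPP5D SNP libraries 2 and 3, in 0 of 3 WT libraries and in 4 of those 15. No region nearest to INPP5D was called in all 3 libraries of one line and in 0 of the other. To compare calls despite unequal depth, each region's call (1 or 0) had subtracted from it what that library called, on average, among regions with the same number of calling libraries, and the result was averaged over a gene's regions. On this depth-adjusted scale the INPP5D SNP libraries stood at 0.0404, -0.0201 and -0.0185 and the WT libraries at -0.105, 0.0486 and 0.0542. Their difference was 0.00117 (SE 0.0741, limma adjusted p = 0.999), with overlapping groups. It depended on the regions used, at 0.39 over the gene-end regions alone (the promoter, called in all 6 libraries, and the 3′ end) and 0.06 in lists of equal length (limma adjusted p = 1.00 for both). The 1 Mb window that holds INPP5D (54 regions) differed by -0.0605 (SE 0.0482, unadjusted p = 0.244, limma adjusted p = 1.00).

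Across the genome there were 126142 regions. Every library called 35729 of them (28.3%), while 31784 (25.2%) came from 1 library each, and gene ends made up 24.8% of the former and 3.53% of the latter. Few regions separated the lines completely: 48 were called in 3 of 3 INPP5D SNP and 0 of 3 WT libraries (gained, 0.0381% of regions) and 238 in 0 of 3 INPP5D SNP and 3 of 3 WT libraries (lost, 0.189%). Allowing 1 call in the other line gave 455 and 1487. A single region has no test here, since an exact permutation test of 3 against 3 calls cannot go below p = 0.1. When each list was limited to its first 46991 peaks in file order, 160 regions were gained and 154 lost. Among them were 0 of the 48 and 4 of the 238. In the full lists, 152 of those 160 regions had a call in 2 WT libraries and 8 in 1. Of those 154, 111 had a call in 2 INPP5D SNP libraries, 20 in 1, 19 in 3 and 4 in 0. The cut removes peaks late in the file order, so it cannot test regions that stand there. It adds no calls, so a region without a call in a line stays without one. Whether a gained or lost region remains so after the cut thus depends only on its place in the lists that called it.

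**Figure D2:**
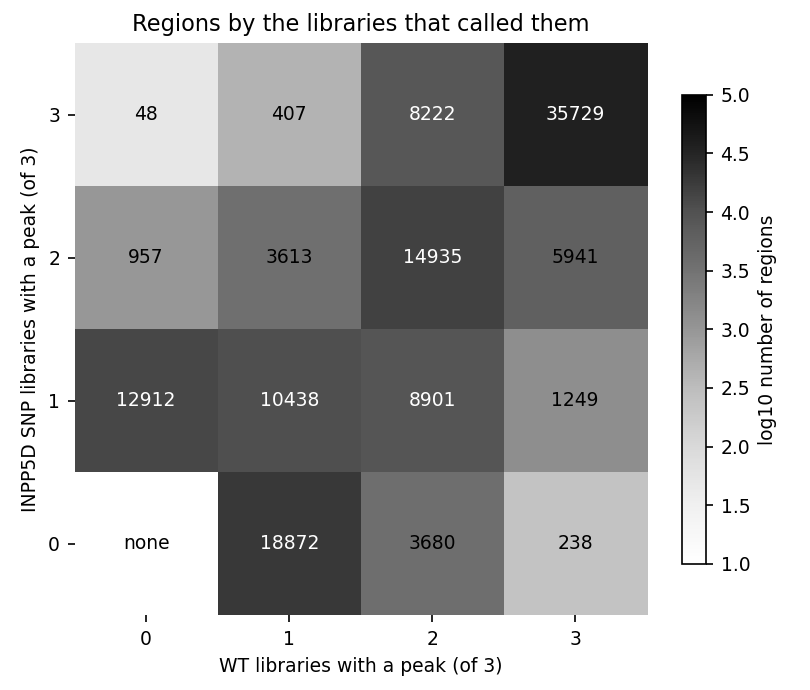
Number of regions by how many of the 3 INPP5D SNP libraries (vertical axis) and of the 3 WT libraries (horizontal axis) had a peak there, shaded on a log10 scale. The largest cell holds the 35729 regions called by all 6 libraries, and the corners that separate the lines hold 48 and 238 regions.

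Each count was highest when a library numbered 2 was left out. These have the fewest tags and also fragment lengths of 186 and 262 bp, against 74 bp in the other 4. Without WT replicate 2, which has the shortest list, 51 regions were gained and 3572 lost, and without INPP5D SNP replicate 2 the counts were 777 and 278. Leaving out any of the other 4 libraries gave 103 to 275 gained and 371 to 1244 lost regions. With a library left out, only 2 libraries of its line have to agree, a looser rule that by itself raises the counts. Leaving out replicate 2 in both lines gave 800 gained and 3835 lost regions. The 48 gained regions comprised 3 gene ends, 24 within genes and 21 outside, and the 238 lost regions 6, 100 and 132. Their median place in the file order, with 100 as the first peak, was 20.1 and 20.6, so most stood low in the lists of the libraries that called them.

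A single region was called in every library of the series outside the INPP5D SNP line and in none of it. It lies within TSHR, the gene of the thyrotropin receptor, at chr14:81112979-81114722, and was chosen after its values were seen. Its widths were 1744, 762 and 501 bp in WT and it was called in 15 of 15 libraries of the other edited lines, against 0 of 3 in INPP5D SNP. In lists of equal length it was not among the lost regions, as the cut left it with fewer WT calls.

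The 4 lost regions that stood early enough in the WT lists to stay lost in equal lists include one in a phosphatase of the same pathway. INPP4B, which removes the 4-phosphate from SHIP1's product, had a lost region within the gene at chr4:142100464-142101550, with widths of 1042, 632 and 627 bp in WT, and 8 of the 15 other libraries called it. Over all 56 regions nearest to INPP4B, INPP5D SNP libraries called 26, 16 and 31 and WT libraries 40, 21 and 40, with overlapping groups. On the depth-adjusted scale they stood at -0.0812, -0.0282 and -0.0647 against 0.0301, 0.0961 and 0.0479, which do not overlap, as at 325 of 6998 genes tested (4.64%). The difference of -0.12 (SE 0.0666, unadjusted p = 0.114) did not pass (limma adjusted p = 0.999). Its inner promoter region (chr4:142402984-142406784) measured 2611, 2608 and 3728 bp against 2735, 2946 and 2653 bp, a difference of 0.14 on the centred log2 scale (SE 0.25, unadjusted p = 0.603), and its outer promoter region (chr4:142845287-142847627) 650, 657 and 626 bp against 2341, 0 and 1398 bp. WT library 2 had no peak at the outer promoter, and the other WT libraries were wider there than any INPP5D SNP library.

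The other 3 lie in BRI3BP, in NIPAL1 and over the promoter of LINC01515. BRI3BP, whose product binds the membrane protein BRI3, lost the region chr12:125049255-125050032, with widths of 778, 501 and 627 bp in WT. That region was called in 14 of the 15 other libraries, all but SORL1-A528T replicate 2. NIPAL1, a magnesium transporter gene, lost chr4:48033680-48034452 (759, 627 and 501 bp in WT, 12 of 15 other libraries). The LINC01515 region, chr10:65570108-65571651, has no protein-coding gene within 100 kb and measured 1391, 501 and 906 bp in WT, with 11 of 15 other libraries calling it. All 4 regions were thus open in at least 8 of the 15 other edited libraries.

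Further lost regions were named for lying at gene ends. They are at KCNA2 (a voltage-gated potassium channel), FTCDNL1, FGL1 (a secreted ligand of the immune receptor LAG3), ADPRS (a hydrolase of serine ADP-ribosylation), TMEM132A and LOC128092250. WT widths there ran from 501 to 1447 bp, and 6 to 11 of the 15 other libraries called them. For 5 of the 238 lost regions, 0 of the 15 other libraries had a call, so that the peak was seen in WT alone. These lie in MAST4, SH3BGRL2, VEGFC (a growth factor of lymphatic vessels) and TRHDE, and near KCNJ3.

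Of the 48 gained regions 0 were gained in lists of equal length, and each was called by at least 2 and at most 13 of the 15 other libraries. At gene ends they lay over LBX2 (a homeobox factor, widths 1295, 1131 and 501 bp), IGFBPL1 (related to insulin-like growth factor binding proteins, 627, 501 and 501 bp) and HNRNPH1 (a splicing factor, 501 bp in each). Each of these 3 was also called in 6 of the 15 other libraries. The IGFBPL1 and HNRNPH1 peaks cover the promoters shown above, while the HNRNPH1 promoters at chr5:179623622-179623921 and chr5:179623352-179623651 were under a peak in all 6 libraries. A further HNRNPH1 promoter, chr5:179624551-179624850, was under a peak in every library except WT library 2. Other gained regions were within OTUD5 (a deubiquitinase, 2 of 15 other libraries) and GPD1L, near SMS, GCLC (glutathione synthesis), FGF19 and GPX7 (an endoplasmic reticulum peroxidase), and on chromosome 20 with no gene within 100 kb. INPP5D SNP library 2 had the commonest width, 501 bp, at 9 of these 10 regions, all but that at LBX2.

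**Figure D3:**
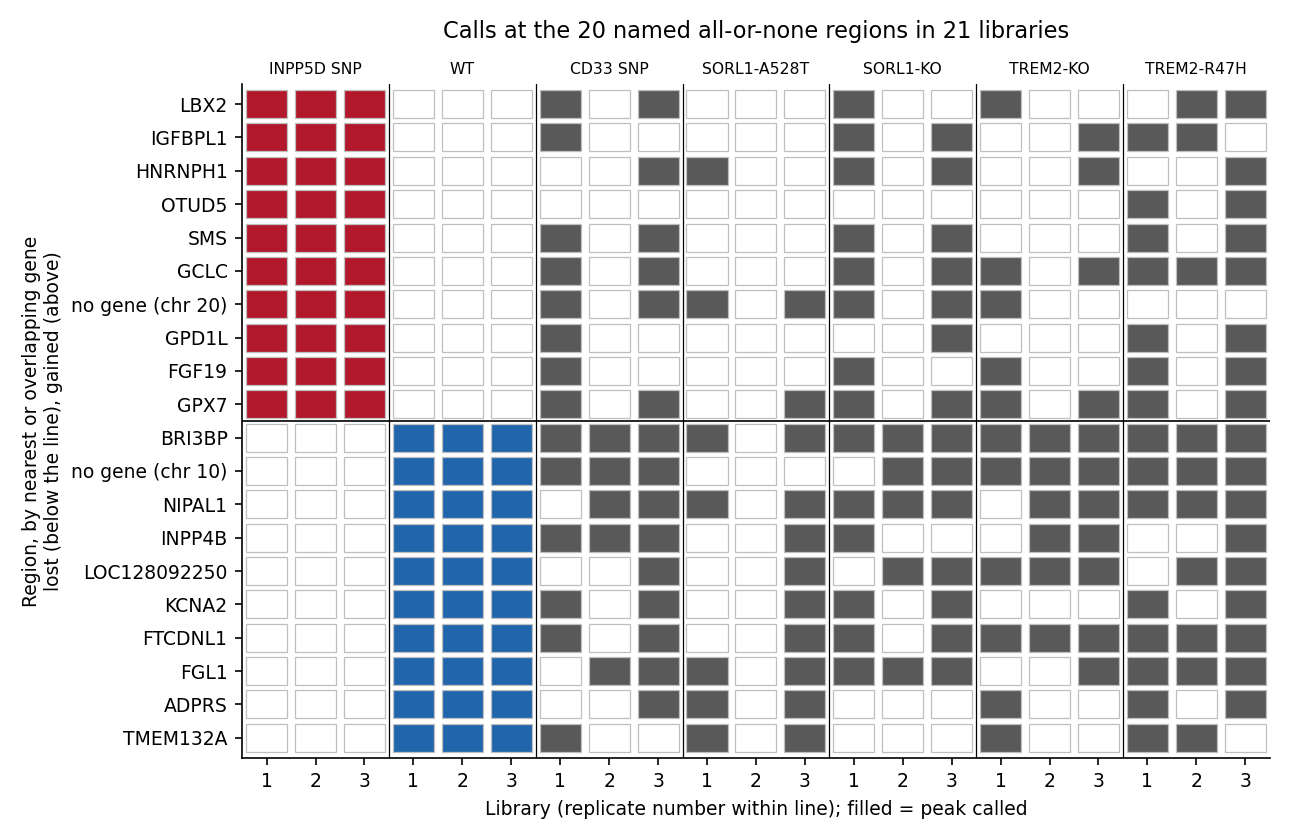
Calls at the 20 named all-or-none regions in all 21 libraries, 3 per line, with rows named by the nearest or overlapping gene. Filled squares are calls (red INPP5D SNP, blue WT, grey the other 5 edited lines). The lost regions at BRI3BP, NIPAL1 and LINC01515 (the row marked chr 10) are filled in most grey columns, and the gained region at OTUD5 in 2.

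Tested gene by gene, 0 of 6998 genes with at least 5 regions passed in either direction (limma over the 6 libraries, Benjamini-Hochberg adjusted p below 0.05). At an unadjusted p below 0.05, the call was greater in INPP5D SNP for 112 genes (1.60%) and smaller for 114 (1.63%). For 295 genes (4.22%) every INPP5D SNP library stood above every WT library and in 325 (4.64%) below. On simulated data this test passed none of the genes made to differ, so its count of 0 does not show that calls were alike.

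NAA35 had the smallest p. It encodes the auxiliary subunit of NatC, a complex that acetylates the N-termini of proteins during translation. Of its 5 regions INPP5D SNP libraries called 2, 1 and 3 and WT libraries 5, 3 and 5. The depth-adjusted call was -0.257, -0.164 and -0.167 in INPP5D SNP and 0.141, 0.283 and 0.164 in WT, with no overlap. The difference was -0.39 (SE 0.0735, unadjusted p = 0.000414, limma adjusted p = 0.999 over the 6 libraries). Its promoter region (chr9:85940302-85942221) was called in all 21 libraries and was as wide in both lines within the spread, at 1755, 1343 and 1420 bp against 1671, 1619 and 1697 bp (-0.10 on the centred log2 scale, unadjusted p = 0.660).

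The difference at NAA35 came from regions away from the promoter. Upstream of the gene, chr9:85892267-85892864 was called in 0 of 3 against 3 of 3 libraries, chr9:85897638-85898515 in 2 against 3, and chr9:85900417-85901061 in 1 against 2. Within the gene, chr9:85995593-85996125 was called in 0 against 2. With gene-end regions alone the difference was 0, as the promoter region has a call in every library. The upstream regions lie 40085 to 48282 bp from the gene.

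In a fit over all 21 libraries, which share one estimate of the spread, NAA35 was the only one of 8421 genes to pass against WT (0.0119%, 0 higher and 1 lower). There the difference was -0.41 (SE 0.0649, limma adjusted p = 0.0291), while an unadjusted p below 0.05 was met by 129 genes with a higher value (1.53%) and 112 with a lower one (1.33%). The WT mean of 0.232 ± 0.00870 was the highest of the 7 lines and the INPP5D SNP mean of -0.179 ± 0.0625 the lowest (SD, n = 3 each). The other edited lines lay between, from -0.0893 ± 0.0614 in TREM2-R47H to 0.0555 ± 0.138 in CD33 SNP. Against those 5 lines together INPP5D SNP was lower by -0.17 (SE 0.0503, unadjusted p = 0.00312), which did not pass (limma adjusted p = 1.00). All 5 of their means lay below that of WT. NAA35 was chosen with earlier results of these data known, so its place at the head of the list is no independent support.

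**Figure D4:**
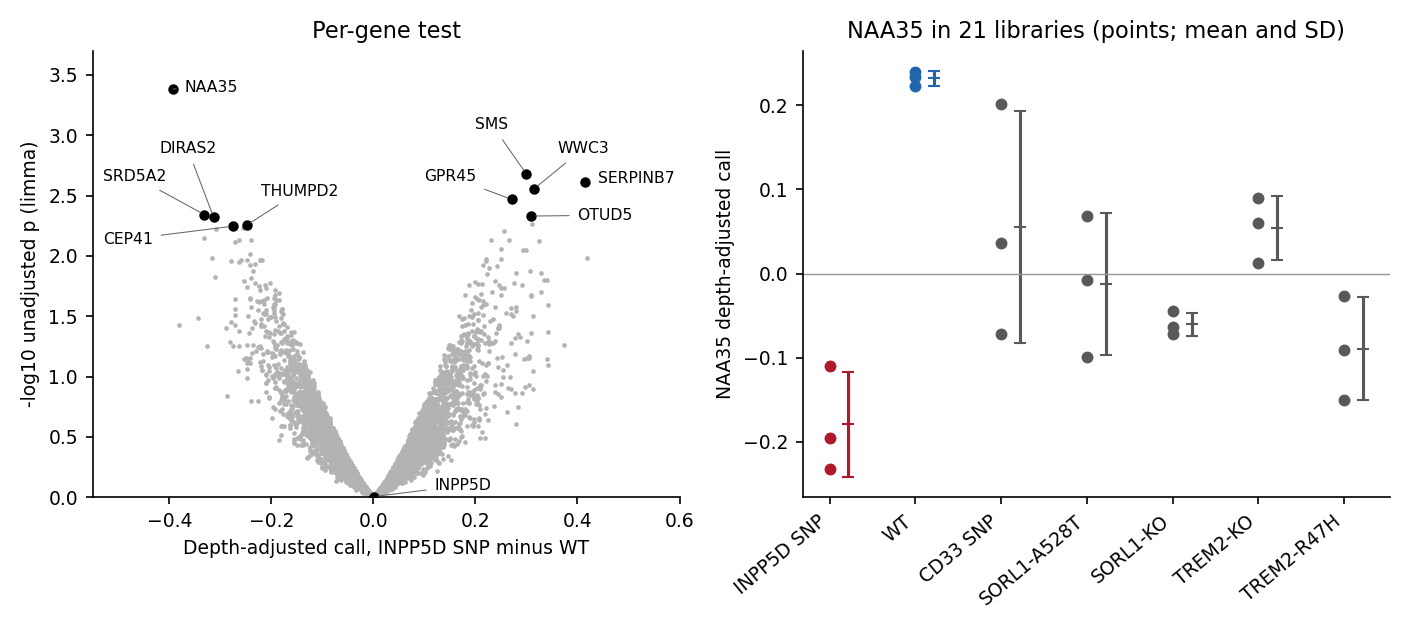
Left, each of 6998 genes by its difference in mean depth-adjusted call (INPP5D SNP minus WT) and -log10 of the unadjusted limma p, with INPP5D and the leading genes named. Right, the NAA35 depth-adjusted call in the 21 libraries by line, as points with the mean and SD: WT is highest and INPP5D SNP lowest.

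Other leading genes did not pass either (limma adjusted p = 0.999 for each). Higher in INPP5D SNP were SERPINB7 (a serine protease inhibitor, 0.42, SE 0.101), WWC3 (a Hippo pathway protein, 0.32, SE 0.0784), OTUD5 (0.31, SE 0.0839), SMS (spermine synthase, 0.30, SE 0.0710) and the orphan receptor gene GPR45 (0.27, SE 0.0696). Lower were SRD5A2 (a steroid reductase, -0.33, SE 0.0893), DIRAS2 (a small GTPase, -0.31, SE 0.0851), CEP41 (a ciliary protein, -0.28, SE 0.0771) and THUMPD2 (an RNA methyltransferase, -0.25, SE 0.0692). These 9 genes were picked by their p in this test, and at each the groups did not overlap. Over all genes tested, the groups did not overlap at 4.22% with INPP5D SNP above WT and 4.64% with it below. WWC3 stood at 0.20 without INPP5D SNP replicate 1, and at 0.04 against the other edited lines (SE 0.0548, unadjusted p = 0.519). Against those lines DIRAS2 (-0.133), THUMPD2 (-0.0885) and CEP41 (-0.0804) also had an unadjusted limma p above 0.05. SERPINB7, GPR45, SMS and SRD5A2 were below it without passing, and OTUD5 had no value in that comparison. SMS, WWC3 and OTUD5 are on the X chromosome, where 8 of 293 genes tested (2.73%) were greater and 6 (2.05%) smaller without adjustment. The X chromosome as a whole differed by -0.00757 (SE 0.0366, limma adjusted p = 0.931).

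SMS, which makes the polyamine spermine, showed the same direction in calls and in the width of its promoter region. Of its 19 regions INPP5D SNP libraries called 15, 14 and 18 and WT libraries 12, 6 and 13. The groups did not overlap, and the depth-adjusted call was 0.0686, 0.205 and 0.175 against -0.182, -0.148 and -0.119. Its promoter region (chrX:21940039-21943665) was called in all 21 libraries and measured 2503, 2257 and 3627 bp in INPP5D SNP against 1892, 1143 and 1378 bp in WT. Every INPP5D SNP library was wider than every WT library, as at 0.996% of regions, by 0.98 on the centred log2 scale (SE 0.22, unadjusted p = 0.000693, limma adjusted p = 0.999). A region within the gene, chrX:21985002-21985869, was narrower, at 501, 501 and 632 bp against 626, 780 and 627 bp (-0.26, SE 0.27). The remaining SMS regions called in all 6 libraries had positive width differences. In the 21-library fit the call difference was 0.29 (SE 0.0761, limma adjusted p = 0.999). This match of both measures at SMS was chosen after its values were seen. The other edited lines spread widely at SMS in that fit, from -0.195 ± 0.134 in SORL1-A528T to 0.126 ± 0.0708 in TREM2-R47H (SD, n = 3 each), against 0.171 ± 0.0932 in INPP5D SNP and -0.123 ± 0.0319 in WT.

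Peak widths showed no called difference. Of the 35729 regions called in all 6 libraries 0 passed, with 294 wider (0.823%) and 269 narrower (0.753%) in INPP5D SNP at an unadjusted p below 0.05, and the smallest limma adjusted p was 0.646. The median difference was 0.02 on the centred log2 scale. On simulated data the width test passed most regions given a large change and a minority of those given a smaller one. The smallest p belonged to the region over the LINC02106 promoter, chr5:50967324-50970169, with 2056, 1300 and 2572 bp in INPP5D SNP against 971, 501 and 767 bp in WT (1.45, SE 0.21, unadjusted p = 1.81e-05, limma adjusted p = 0.646). It and the following regions were chosen after their values were seen.

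Narrower in INPP5D SNP were regions in TM4SF4 (a tetraspan membrane protein, 658, 501 and 628 bp against 1574, 1474 and 1301 bp), at EN2 (a homeobox factor, 633, 501 and 633 bp against 1817, 794 and 1179 bp), in TRAF3IP3 (an adaptor of immune cells, 758, 501 and 626 bp against 1504, 778 and 1555 bp) and in HDAC9 (a histone deacetylase, 930, 627 and 751 bp against 1716, 1392 and 1414 bp). A region in TRIM44 was wider, at 1257, 1140 and 1809 bp against 751, 501 and 769 bp. Raw widths of the groups did not overlap at any of these 5 regions, which were picked by their p. Over all 35729 regions they did not overlap at 356 that were wider (0.996%) and 940 that were narrower (2.63%) in INPP5D SNP. Each adjusted p was 0.999 (limma, Benjamini-Hochberg). INPP5D SNP library 2 had the commonest width of 501 bp at TM4SF4, EN2 and TRAF3IP3.

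**Figure D5:**
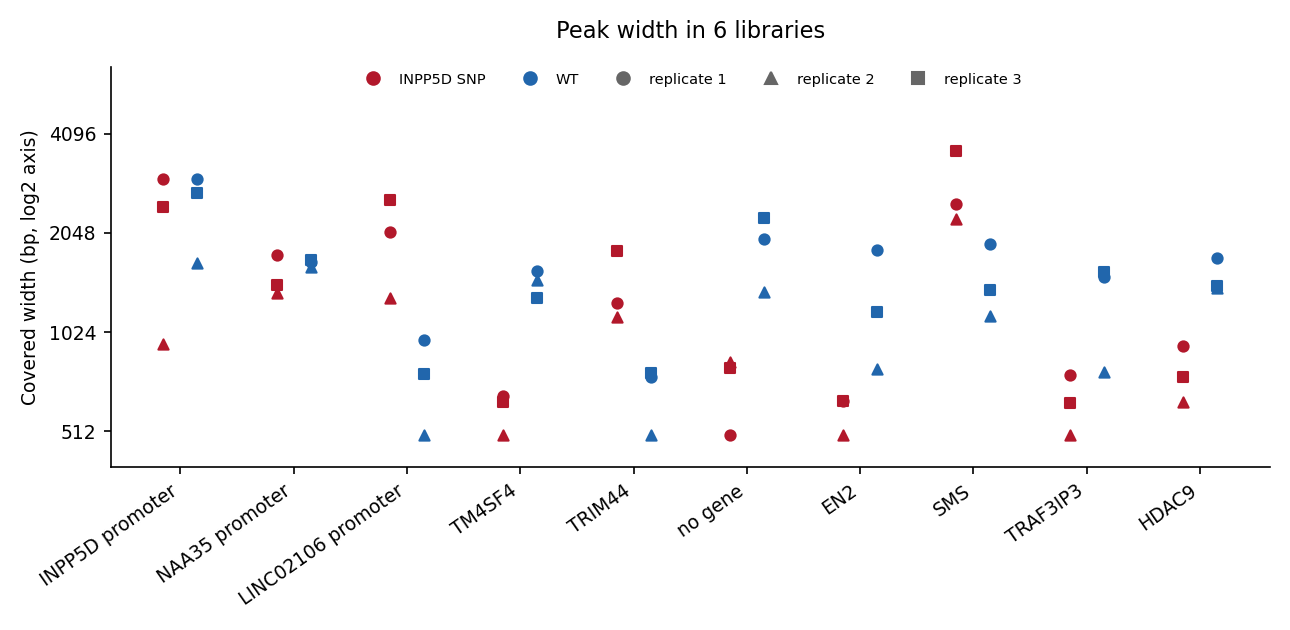
Width in bp (log2 axis) of the INPP5D and NAA35 promoter regions and of the 8 regions with the smallest p in the width test, in 3 INPP5D SNP (red) and 3 WT (blue) libraries, with symbols for the replicate number. Widths at the 2 promoters overlap between lines, and at the 8 regions chosen for their p they do not.

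No gene of SHIP1's pathway passed. Of 52 genes of phosphoinositide signalling 38 had enough regions to test. Of these, 25 had a positive difference, with a median of 0.0215. Over all genes tested 3557 of 6998 (50.8%) were positive, with a median of 0.00146. Without INPP5D SNP replicate 1, the library with the lowest share of tags in peaks, 17 of 36 genes of the set were positive (median -0.00943), against 46.8% and -0.00829 over all genes. With all 6 libraries an unadjusted p below 0.05 was met by 1 gene upward (ARAP3) and 0 downward. ARAP3, a GTPase-activating protein that binds PIP3, stood at 0.245, 0.0547 and 0.0234 in INPP5D SNP and -0.0127, -0.161 and -0.149 in WT (difference 0.22, SE 0.0848, unadjusted p = 0.0308). PLCG1, a phospholipase that uses PI(4,5)P2, differed by 0.17 (SE 0.0778) with overlapping groups, and INPP5D SNP replicate 1 was the highest library at both genes. Of 623 regions nearest to these genes 0 were gained and 1 was lost (0.161%, against 0.189% of all regions), the one at INPP4B. Promoters of 45 of the genes are in the table, and peaks lay over 43, 34 and 39 in INPP5D SNP and 42, 34 and 40 in WT, among them the phosphatase genes INPPL1, INPP5B, INPP5F, INPP5K and SYNJ1 and the kinase genes PIK3CA, PIK3CB and PIK3CG in all 6 libraries.

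Receptor and adaptor genes upstream of SHIP1 had 0 passing genes. Of 35 immunoreceptor and inhibitory receptor genes 18 were tested, 9 positive, with a median of -0.00206 and 0 at an unadjusted p below 0.05, and without INPP5D SNP replicate 1 the set had 6 of 17 positive (median -0.0499). FCGR2A, an activating Fc receptor, differed by 0.18 (SE 0.103) and CSK, the kinase that restrains Src-family kinases, by 0.18 (SE 0.0974), both with overlapping groups and with INPP5D SNP replicate 1 as the highest library (0.298 and 0.221). FCGR2A stood at 0.09 without WT replicate 3, and CSK ranged from 0.10 (without WT replicate 2) to 0.27 (without WT replicate 1). Promoters of SYK, BTK, PTPN6, TYROBP and CD33 were under a peak in all 6 libraries. Of 27 promoters in the table, 22, 17 and 19 were called in INPP5D SNP and 21, 15 and 20 in WT.

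State genes of microglia showed no called change. Groups did not overlap at OLFML3 and LPL below, as, in this direction, at 4.22% of all genes tested. Among homeostatic genes 12 of 19 tested were positive (median 0.0227), and 5 of 19 (median -0.0476) without INPP5D SNP replicate 1, with OLFML3 at 0.13 (SE 0.0665, no overlap) and the TGF-beta receptor gene TGFBR1 at 0.16 (SE 0.0893, overlapping). Among disease-associated genes 11 of 18 were positive (median 0.0414), and 7 of 16 (median -0.0228) without that library. TIMP2, a metalloproteinase inhibitor, stood at 0.21 (SE 0.148, overlapping; 0.03 without INPP5D SNP replicate 1 and up to 0.34 with another library left out) and the lipase gene LPL at 0.11 (SE 0.0792, no overlap; -0.00954 without WT replicate 2). The promoter region of SPP1 (osteopontin, chr4:87974938-87976134), one of 223 promoter regions of list genes with a width test, measured 792, 501 and 630 bp in INPP5D SNP against 1189, 751 and 1099 bp in WT. It was narrower within each number (-0.60, SE 0.19, unadjusted p = 0.00752, limma adjusted p = 0.999) and was chosen after its values were seen. Of those 223 regions 0 were wider and 2 narrower at an unadjusted p below 0.05. Over all 35729 regions with a width test, 0.823% were wider and 0.753% narrower at that p.

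Transcription factor genes of myeloid cells had 15 of 26 positive differences (median 0.0151), and 11 of 26 (median -0.00882) without INPP5D SNP replicate 1. They were led by RUNX1, a factor of blood stem cells (0.263, 0.0994 and -0.0500 against -0.0751, -0.0914 and -0.146, difference 0.21, SE 0.0886, unadjusted p = 0.0425). Its groups did not overlap, as, in this direction, at 4.22% of all genes tested. INPP5D SNP replicate 1 was the highest library at RUNX1, and the difference was 0.13 without that library. SMAD3, which carries TGF-beta signals, differed by 0.16 (SE 0.0778). Genes at Alzheimer risk loci had 18 of 31 positive (median 0.0129), and 10 of 28 (median -0.0235) without INPP5D SNP replicate 1, with ADAMTS1, a metalloproteinase gene, at 0.22 (SE 0.0981, unadjusted p = 0.0469, no overlap; 0.13 without WT replicate 3 and 0.14 without INPP5D SNP replicate 3), and HLA-DRB1, which presents antigen, at 0.20 (SE 0.126, overlapping). Of their 517 regions 1 was gained, within SLC24A4, and 1 lost, 35430 bp from USP6NL, which encodes a GTPase-activating protein (0.193% each).

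In the remaining sets of genes 0 also passed. Over all genes tested, the base rate for each set, 50.8% had a positive difference. Lysosome and phagocytosis genes had 12 of 21 positive (median 0.0331), led by the integrin gene ITGB2 (0.23, SE 0.106; 0.12 without INPP5D SNP replicate 1), while the mannose receptor gene MRC1 stood at -0.14 (SE 0.0710). NF-kB and cytokine genes had 15 of 23 positive (median 0.0129), with CXCL2 at -0.19 (SE 0.0996) and TNFAIP3 at 0.13 (SE 0.0746). Interferon-induced genes had 1 of 5 positive (median -0.0646), with the antiviral gene RSAD2 at -0.15 (SE 0.0976) and IFI6 at -0.09 (SE 0.104). Of their 77 regions 1 was lost, within MX2 (1.30%, against 0.189% of all regions). AP-1 genes had 7 of 7 positive with a median of 0.0327 and 0 at an unadjusted p below 0.05, among them BATF3 (0.08, SE 0.0696) and JUN (0.06, SE 0.0785), both with overlapping groups. Cholesterol and lipid genes had 10 of 15 positive (median 0.0496). Of the N-terminal acetyltransferase genes 2 were tested, NAA35 and NAA25, the latter at -0.00794 (SE 0.0728), and the promoters of 9 of 10 were called in all 6 libraries. Housekeeping genes had 3 of 6 positive (median 0.0209), with the transferrin receptor gene TFRC at 0.12 (SE 0.0881; 0.03 without INPP5D SNP replicate 1 and up to 0.17 with another left out) and the actin gene ACTB at 0.09 (SE 0.0823).

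INPP5D SNP replicate 1, the library with the lowest share of tags in peaks, was the highest of the 6 at several genes named from these sets, chosen after their values were seen. It stood at 0.349 for ITGB2, 0.431 for TIMP2, 0.401 for HLA-DRB1, 0.222 for TFRC and 0.198 for ACTB, while INPP5D SNP replicates 2 and 3 ranged there from -0.145 to 0.0422. WT ranged from -0.306 to 0.101 at the same genes. INPP5D SNP replicate 1 was the lowest of the 6 at other named genes, among them RSAD2 (-0.232) and COL1A2 (-0.257). Of the 18 sets, 14 had a positive median with all 6 libraries and 5 without this one, an alternative chosen after seeing the data. Set medians are not given with any other library left out, so these counts cannot show that this library stands apart. Whether its share of tags in peaks bears on them was not tested. Over all genes tested, the median was 0.00146 with all 6 libraries and -0.00829 without INPP5D SNP replicate 1. Without it the medians were -0.00402 for NF-kB and cytokine genes, -0.0154 for cholesterol and lipid genes, -0.00944 for erythroid, megakaryocyte and mast cell genes and -0.0338 for lymphoid and granulocyte genes, and were positive for lysosome and phagocytosis (0.00466), AP-1 (0.0834), pluripotent (0.0759), neural (0.0696) and housekeeping genes (0.0120).

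Markers of other cells gave 0 passing genes as well. Positive differences were seen in 3 of 5 erythroid, megakaryocyte and mast cell genes, 4 of 7 lymphoid and granulocyte genes, 6 of 13 mesenchymal and endothelial genes, 2 of 2 pluripotent genes and 6 of 7 neural genes. OLIG2, a factor of the oligodendrocyte lineage, had the only unadjusted p below 0.05 among them (0.368, -0.0469 and 0.0887 against -0.207, -0.0365 and -0.167, difference 0.27, SE 0.108, unadjusted p = 0.0315, limma adjusted p = 0.999). Its groups overlapped and INPP5D SNP replicate 1 was highest. GFI1B, an erythroid and megakaryocyte factor, differed by 0.20 (SE 0.131) and NFE2 by -0.13 (SE 0.113). The endothelial receptor gene TEK differed by -0.17 (SE 0.0992), COL1A2 by -0.13 (SE 0.103), BCL11B of lymphoid cells by -0.08 (SE 0.0699), the neural genes NCAM1 by 0.12 (SE 0.0692) and NEUROD1 by -0.10 (SE 0.0907), and the stem cell genes SOX2 by 0.05 (SE 0.0825) and LIN28B by 0.00904 (SE 0.0743). A lost region lay 53882 bp from the collagen gene COL3A1. It was 1 of 144 regions of the mesenchymal and endothelial genes (0.694%, against 0.189% of all regions).

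No larger span of the genome passed either. Of 2804 windows of 1 Mb 0 passed (limma; without adjustment 6 windows, 0.214%, had a greater call in INPP5D SNP and 24, 0.856%, a smaller one), and of 23 chromosomes 0 passed and 0 were below 0.05 unadjusted (smallest adjusted p = 0.931). Against the other 5 edited lines, 0 of 8421 genes passed, and without adjustment 140 (1.66%) were above and 78 (0.926%) below. The 3 libraries titled SORL1-A528T carry a TREM2-KO genotype in another label, and without them 111 and 92 genes were above and below, with 0 passing. The smallest limma adjusted p there was 0.908, at SUPT20HL1 (0.25, SE 0.0529). INPP5D itself differed there by -0.00445 (SE 0.0455).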

How the data were processed

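The data are 21 lists of ATAC-seq peaks. Per the file headers, the authors called them with HOMER findPeaks with no control library, a peak size of 500 bp, a minimum distance of 1000 bp, at least 4-fold signal over the surrounding 10000 bp, a local Poisson p of 1e-04 and a putative-peak p of 0.001. The deposited score column holds the value 1 for every peak, so the values used were the deposited positions, and height is not used here. The order of the lists is as deposited, and what it ranks is not given in the headers. The submitters' processing notes name cutadapt 1.18, STAR 2.7, HOMER 4.10 and DESeq2, without their roles. The genome build is not stated. RefSeq promoters of GRCh38.p14 lay under regions called in all 6 libraries for 37.9%, against 2.90 and 2.82% after a shift of 10 kb either way, and gene names and promoters were taken from that build.

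Peaks on chromosomes 1 to 22 and X of the 6 lists were merged at 1 bp, and 396 peaks elsewhere (0.0859%) were left out. A region was assigned to the nearest of 19974 protein-coding gene spans within 100 kb. Exons and introns were not annotated here. Tests used limma 3.58.1 in R 4.3.3 over genes with at least 5 regions, windows of 1 Mb with at least 10, chromosomes and widths, with Benjamini-Hochberg adjustment and a threshold of 0.05, and two-sided exact permutation tests for values per library. The depth-adjusted call sets a gene's group means at equal distances from 0, so its sign shows only the difference. Scripts ran in Python 3.11.15 and were tested on simulated data. Peak calling counts tags without molecular identifiers, and the lists differ in depth. Alternatives covered list length, overlap, filters, the replicate block, other scalings, libraries left out and a fit of all 21 libraries.

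Genes named are INPP5D, NAA35, the 5 with the smallest p in each direction, the 2 members of each list with the smallest p (the rule allowed up to 4), and 10 all-or-none regions a direction, by equal-length status, gene ends and file order. The members and lists were chosen with earlier results of these data known. Of 452 list genes 451 matched RefSeq symbols. Same-numbered libraries of the 2 lines deviated together in widths (r = 0.375, 0.456 and 0.172) and not in calls per gene (0.200, -0.264 and 0.0882). The numbers thus pair the libraries for widths, as the data show and not the labels. Peak sets also overlapped more between lines at the same number (mean Jaccard index 0.613) than at unlike numbers (0.488). Calls per gene were compared after the adjustment for depth, so their r values cannot show that unadjusted calls are unpaired. Width p-values given for single regions come from the fit without the replicate block, which ignores the pairing in widths. A result that names an item withheld for evaluation is not reported here.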

Additional observations from a re-analysis of the deposited data

How the results depend on the processing

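Under every alternative run, including each library left out, 0 features passed in the tests per gene, width, window and chromosome and against the other edited lines, except that 1 gene, NAA35 (-0.41), passed as lower with 21 libraries. With the replicate block, 0 passed in each test. Unadjusted counts for widths then rose from 294 wider and 269 narrower to 762 and 686, and those per gene were 143 and 119.

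Gained and lost regions numbered 160 and 154 with equal list lengths and 800 and 3835 without replicate 2 in both lines, an alternative chosen after seeing the data. Leaving out 1 library, which loosens the rule, gave 51 to 777 gained and 278 to 3572 lost. Differences between the lines in the values per library, none near the threshold, changed sign: median width to -50 bp and the share of peaks in genes to 0.140 percentage points with equal lengths, and, with 1 library left out, median width (-5 to 11 bp), peaks per library (-21678 to 6038), and the shares at gene ends (-0.795 to 2.77) and in genes (-1.27 to 0.874).

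The INPP5D difference was -0.00176 with 50% cover, -0.0242 with 21 libraries, -0.0333 without depth adjustment, 0.0575 with equal lengths, 0.39 with gene-end regions alone and -0.0646 to 0.0331 with 1 library left out. With gene-end regions alone the difference was 0 for NAA35, SMS, WWC3, OTUD5, FCGR2A, OLFML3, TGFBR1, RUNX1, HLA-DRB1, JUN, NAA25, NCAM1, BCL11B, TFRC and ACTB, and 0.28 for COL1A2. Equal lengths gave -0.13 for TGFBR1, -0.0512 for TNFAIP3, -0.0300 for NCAM1, -0.0593 for SOX2 and 0 for BATF3, which was -0.0301 with regions called in at least 2 libraries. Without replicate 2 in both lines LPL, NAA25 and NFE2 were 0. NAA25 was 0.0817 with 50% cover and, like SOX2, 0 without depth adjustment. LIN28B was -0.00447 with 21 libraries and -0.0333 without depth adjustment. With 1 library left out, LIN28B ranged from -0.0336 to 0.0535, LPL from -0.00954 to 0.148, NAA25 from -0.0413 to 0.0396, NFE2 from -0.212 to 0.0396 and SOX2 from -0.0114 to 0.130. Of 45 named genes 28 moved by over 1.5 times with at least 1 of the libraries left out, and 6 of them changed sign. The causes were not tested. The libraries numbered 2, the shallowest, called 12.5 and 9.58% of the regions called in 4 of 6. Their fragment length also differs, so depth and library make-up cannot be told apart.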
